A study of Mus musculus with 4 samples.

Results

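The splicing machinery described here is 35 genes that encode serine/arginine-rich (SR) proteins, heterogeneous nuclear ribonucleoproteins (hnRNPs), core spliceosome proteins and associated factors. They were picked by symbol from the 32285 genes of each deposited matrix, and each symbol matched 1 gene. They comprise 12 SR genes (Srsf1 to Srsf7, Srsf9 to Srsf11, Tra2a and Tra2b), 12 hnRNP genes (the Hnrnp genes and Ptbp1), 9 core spliceosome genes and the 2 associated genes Rbm39 and Ddx5. Liver nuclei of wild-type male mice of the inbred C57BL6/J strain were profiled by droplet single-nucleus RNA sequencing. The young group (2-month-old mice) and the aged group (30-month-old mice) each had 2 libraries, with no treatment and no transgene, and both groups shared strain, sex and genotype. Whether the replicates of a group came from different animals is not stated, so p-values measure only the spread between these libraries, which may be technical.

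Introns are removed from pre-mRNA by the spliceosome, which U1 and U2 snRNP and the U2AF factors begin to assemble at the splice sites and the branch point. SR proteins bind enhancer sequences in exons and recruit these early factors, whereas hnRNPs coat nascent transcripts and often bind silencer sequences that oppose them. Many genes of both families limit their own protein by splicing in exons or introns that send their transcripts to decay, and in the hepatocyte the balance of these factors shapes the isoforms of metabolic genes.

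The 4 libraries held 2666 and 14718 barcodes (young) and 11362 and 14267 (aged), of which 1935 and 12219, and 7216 and 11892, were kept. Median UMIs per kept nucleus (unique molecular identifiers, each marking 1 captured RNA molecule) were 3177 and 920, and 1875 and 2272. Young replicate 1 stood apart by its small number of nuclei, and 8 to 67 barcodes were shared between any pair of libraries. Hepatocyte-like nuclei numbered 1363 and 8787 (young) against 5594 and 8525 (aged). Their clusters were named by the lack of another class's markers, with no hepatocyte score required. All 8 hepatocyte markers were detected in each library, but detection does not set this class apart. In young replicate 2 they summed to 19027 unscaled CPM in hepatocyte-like, 15845 in endothelial-like and 13464 in stellate/fibroblast-like nuclei. In aged replicate 1 these sums were 16600, 6252 and 4784. In 2 hepatocyte-like clusters the top 10 genes by fold held a marker of another class and no hepatocyte marker. One was in young replicate 1 (84 nuclei with a median of 14458 UMIs, 18.4% of the UMIs summed over its hepatocyte-like nuclei, whose top genes included the endothelial marker Flt1 and the macrophage genes F13a1 and C1qa), and the other in aged replicate 2 (733 nuclei, 12.4% of the UMIs, whose top genes included the T cell marker Themis beside Cyp2c38, Slc1a2, Lgr5 and Cyp2a5, which hepatocytes near the central vein express). Their summed hepatocyte markers were 19936 and 9029.6 unscaled CPM against 21027 and 16129 in the other hepatocyte-like nuclei of the same library, and the 35 members summed to 9114 and 5341 against 9508 and 5400.1. Results that rest on hepatocyte-like nuclei are given with these clusters, and the fits without them, chosen after seeing the data, beside them. Only stellate/fibroblast-like and endothelial-like nuclei also reached 20 nuclei in every library and were tested. All of their own markers were detected. These summed to at least 8730 and 7143 unscaled CPM in every library, against at most 187 and 186 in hepatocyte-like nuclei.

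The promoters of the members are shown for 1 gene of each subgroup, namely the member with the smallest unadjusted p for age in hepatocyte-like nuclei whose window lies outside its annotated gene, so that each subgroup is seen beside the values it turns on. Sequences and positions are from RefSeq (GRCm38.p6, the same build as mm10) and cover the 250 bases before the start on the strand of the gene. They are chr2:162931258-162931507 (plus strand) for Srsf6, chr11:50376740-50376989 (plus) for Hnrnph1, chr19:6363440-6363689 (plus) for Sf1 and chr11:106789186-106789435 (minus) for Ddx5. Capitals mark any of the 9 motifs searched.
Srsf6: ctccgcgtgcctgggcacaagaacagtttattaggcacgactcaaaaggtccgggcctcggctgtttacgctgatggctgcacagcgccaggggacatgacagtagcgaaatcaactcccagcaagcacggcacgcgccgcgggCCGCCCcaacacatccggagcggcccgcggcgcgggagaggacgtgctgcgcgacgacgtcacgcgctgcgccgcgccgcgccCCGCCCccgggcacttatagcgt
Hnrnph1: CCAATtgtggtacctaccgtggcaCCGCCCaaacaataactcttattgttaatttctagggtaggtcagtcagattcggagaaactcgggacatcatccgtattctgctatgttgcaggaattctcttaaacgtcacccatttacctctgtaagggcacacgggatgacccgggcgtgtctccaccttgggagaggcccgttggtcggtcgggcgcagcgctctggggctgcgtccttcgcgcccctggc
Sf1: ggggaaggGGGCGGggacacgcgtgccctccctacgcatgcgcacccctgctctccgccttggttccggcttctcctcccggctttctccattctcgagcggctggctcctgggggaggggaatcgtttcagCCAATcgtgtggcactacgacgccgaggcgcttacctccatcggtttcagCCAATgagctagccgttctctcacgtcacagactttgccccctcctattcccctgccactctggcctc
Ddx5: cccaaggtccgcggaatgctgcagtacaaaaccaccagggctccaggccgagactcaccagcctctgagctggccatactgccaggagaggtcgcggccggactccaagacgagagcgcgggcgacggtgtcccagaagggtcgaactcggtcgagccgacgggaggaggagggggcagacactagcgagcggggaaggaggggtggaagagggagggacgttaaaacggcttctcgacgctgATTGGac

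In these windows Srsf6 held 2 GC boxes, Hnrnph1 a CCAAT box and a GC box, Sf1 2 CCAAT boxes and a GC box, and Ddx5 a CCAAT box on the opposite strand. Of the members 34 matched a promoter in the table; U2af2 did not. The member promoters were rich in G and C, with a median of 60.2% against 52% over 27025 promoters of the same length, and held a median of 19.5 CpG dinucleotides against 6. The GC box (GGGCGG, both strands) was in 23 of the 34 (67.6%) against 33.0% of all promoters, and in 11 of the 12 SR promoters but 6 of the 12 hnRNP promoters. The CCAAT box (CCAAT) was in 18 (52.9%) against 34.5%, and in 8 hnRNP but 4 SR promoters. The ETS motif (CCGGAAGT) was in 5 against 2.92% of all promoters, in Srsf4, Srsf5, Hnrnpd, Hnrnpf and Sf3b2. The E-box (CACGTG) was in 4 against 6.04% and the TATA box (TATAAA) in 4 against 13.0%. The CRE (TGACGTCA) was in Tra2a and Snrpa, the NRF1 motif in Snrnp70, the YY1 motif (AAGATGGC) in Ptbp1 and a heat shock element in Tra2b, against 1.60%, 0.777%, 1.58% and 0.403% of all promoters. All motifs were searched on both strands, matches to different motifs may overlap, and a match describes letters and not a bound site.

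To ask how the splicing genes differed with age in hepatocytes, UMIs were summed over the hepatocyte-like nuclei of each library and tested with edgeR's quasi-likelihood test, and levels are given as CPM, the count scaled to the TMM-adjusted library total. All 35 members had a fitted level below that of the young libraries (51.3% of all genes did), yet none passed the adjusted threshold of 0.05. The background was 4 of 15558 genes called (0.0257%), and the smallest edgeR adjusted p of a member was 0.161, for Srsf6. The median log2 fold change was -0.68 over the members and -0.02 over all tested genes. At an unadjusted p under 0.05 there were 13 members, all lower, where 19.3% of all genes passed in either direction and 9.45% were lower. In 28 of the 35 members both aged libraries lay under both young libraries, as they did in 26.7% of all genes, and no member had both aged libraries above (25.9% of all genes). DESeq2 called 1 member lower, Srsf6 (DESeq2 adjusted p = 0.0344), where 918 of 25144 genes were called. Without the 2 clusters that had markers of another class, all 35 members were still below 0, the median was -0.69, 12 had an unadjusted p under 0.05 and edgeR called none (smallest adjusted p = 0.172) among 7 genes.

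The libraries were ordered alike across most members. Young replicate 1 was the highest library for 28 members and aged replicate 1 the lowest for 22. Relative to each gene's mean over the libraries, the median member lay at 0.49 and 0.15 (log2) when young and at -0.37 and -0.22 when aged, whereas the median of all tested genes stayed between -0.02 and 0.04. Without young replicate 1, 31 members were still lower and the median was -0.49; Hnrnpd, Hnrnpu, Rbm39 and Tra2a then lay above 0. Without young replicate 2, young replicate 1 was the only young library, so the young group had no spread of its own. The median was then -0.74, and only Prpf8 lay above 0. The summed level of the 35 members was 10086 and 7228 CPM (young) against 5175 and 5413 CPM (aged).

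**Figure D1:**
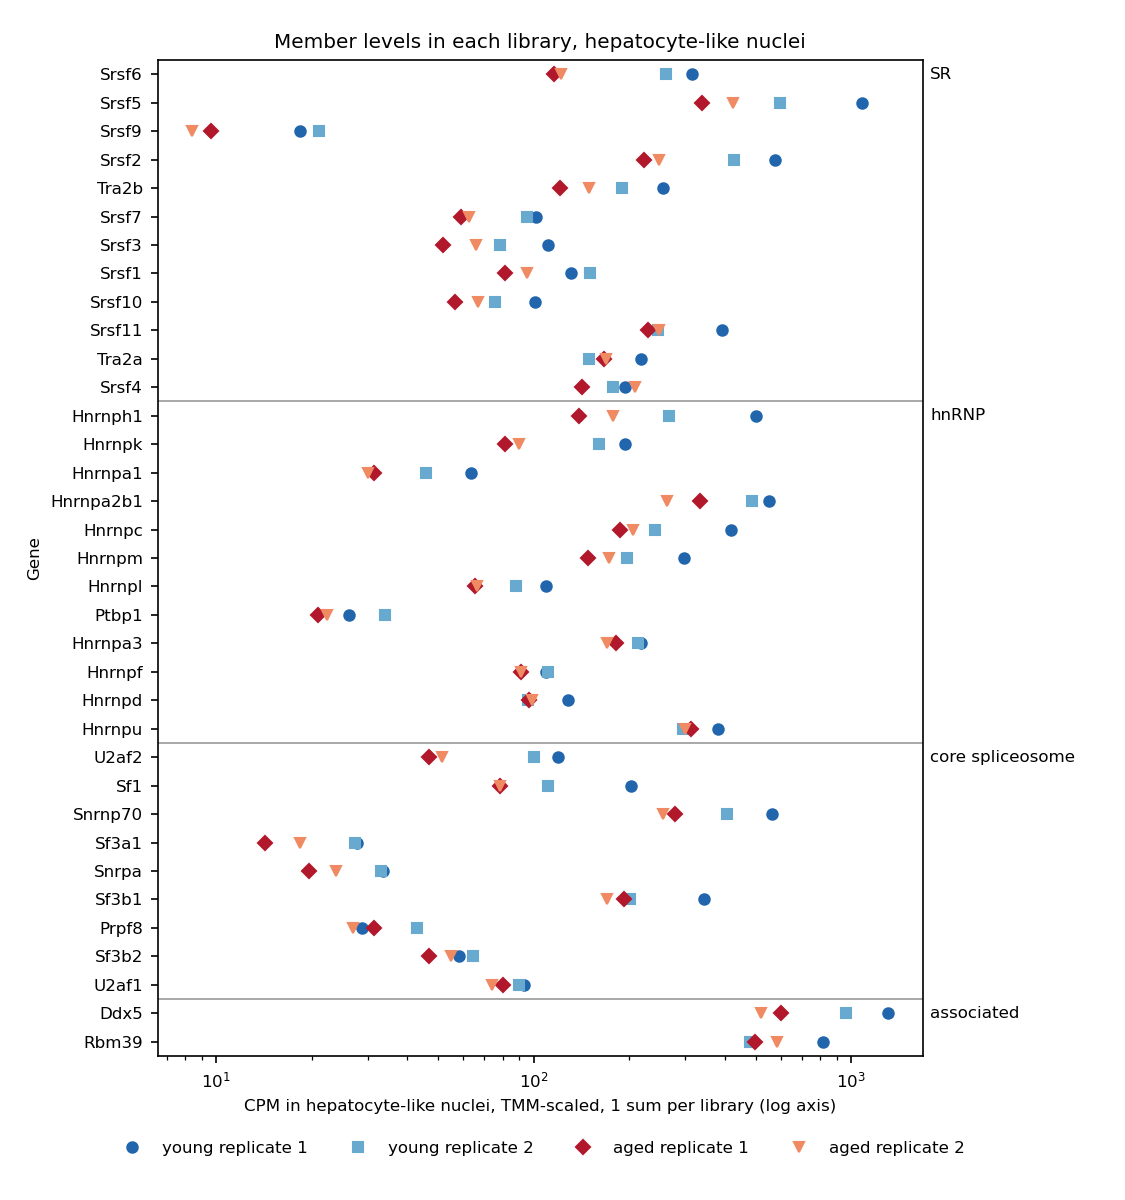
TMM-scaled CPM of each member (rows, grouped by subgroup) in hepatocyte-like nuclei on a log axis, 1 point per library. For 28 of the 35 members both aged points lie left of both young points (26.7% of all genes), and young replicate 1 is the rightmost point for 28.

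SR genes ranged from large fitted differences to almost none. The subgroup median was -0.69 and all 12 were below 0 (51.3% of all genes). By edgeR 5 had an unadjusted p under 0.05, all lower (9.45% of all genes). In 9 both aged libraries lay under both young ones (26.7% of all genes). Srsf6 (ENSMUSG00000016921; mm10 chromosome 2, 162931528 to 162937121, plus strand), an SR protein gene with a decay-inducing exon, had 315 and 261 CPM (young) against 116 and 122 CPM (aged). The aged libraries were close together and well under both young ones (288 ± 37.9 against 119 ± 4.45 CPM, SD, n = 2 each; log2 difference -1.28, SE 0.32, edgeR adjusted p = 0.161). Srsf9 (ENSMUSG00000029538; chromosome 5, 115327177 to 115333080, plus strand), one of the smaller SR proteins, lay at 18.4 and 21.1 against 9.63 and 8.41 CPM, again without overlap (-1.13, SE 0.34, edgeR adjusted p = 0.179). Srsf2 (ENSMUSG00000034120; chromosome 11, 116849901 to 116853094, minus strand), the SC35 protein used to mark nuclear speckles, lay at 577 and 429 against 223 and 247 CPM (-1.09, SE 0.36, edgeR adjusted p = 0.194).

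Srsf5 (ENSMUSG00000021134; chromosome 12, 80945504 to 80950507, plus strand), an SR protein known to respond to insulin, had 1085 CPM in young replicate 1 and 598 in young replicate 2, against 339 and 425 CPM in the aged libraries. The groups did not overlap, but young replicate 1 made up much of the difference (-1.14, SE 0.45, edgeR adjusted p = 0.237). Srsf7, which couples splicing to mRNA export, was tight within groups at 102 and 95.3 against 59.1 and 62.4 CPM (-0.70, edgeR adjusted p = 0.247). Srsf1, the founding SR protein, Srsf3, Srsf10 and the enhancer-binding Tra2b also had both aged libraries under both young ones, with log2 fold changes from -0.73 (Tra2b) to -0.51 (Srsf10). At the other end the groups overlapped for Srsf11 (-0.42), Tra2a (-0.13) and Srsf4 (-0.09). Srsf4, the longest of the classical SR proteins, lay at 195 and 178 against 142 and 208 CPM, so its highest library was an aged one.

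hnRNP genes spread over a similar range. The subgroup median was -0.60 and all 12 were below 0 (51.3% of all genes). By edgeR 3 had an unadjusted p under 0.05, all lower (9.45% of all genes). In 10 both aged libraries lay under both young ones (26.7% of all genes). Hnrnpk (ENSMUSG00000021546; chromosome 13, 58391142 to 58403343, minus strand), which binds C-rich RNA through KH domains, lay at 193 and 160 CPM (young) against 81.4 and 90.2 CPM (aged) (177 ± 23.5 against 85.8 ± 6.19, SD, n = 2 each; log2 difference -1.04, SE 0.30, edgeR adjusted p = 0.174). Hnrnph1 (ENSMUSG00000007850; chromosome 11, 50376990 to 50386528, plus strand), which binds runs of G, lay at 499.9 and 266 against 139 and 178 CPM. Its young libraries differed from each other by more than its aged libraries did, and both were above them (-1.27, SE 0.41, edgeR adjusted p = 0.193).

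Hnrnpa1 (ENSMUSG00000046434; chromosome 15, 103240432 to 103246692, plus strand), the classical antagonist of SR proteins at exons, lay at 63.4 and 45.7 against 31.5 and 30.1 CPM (-0.83, SE 0.31, edgeR adjusted p = 0.228). Hnrnpa2b1 (ENSMUSG00000004980; chromosome 6, 51460932 to 51469894, minus strand), a close relative, lay at 552 and 487 against 335 and 264 CPM (-0.79, SE 0.36, edgeR adjusted p = 0.280). Neither pair of groups overlapped. Processed pseudogene copies exist for Hnrnpa1 and Hnrnpa3, and how reads shared with such copies were counted is not given in the sources used here, so their values are uncertain. Hnrnpc, which binds U tracts, Hnrnpm, Hnrnpl, which binds CA repeats, Ptbp1, the polypyrimidine tract repressor, Hnrnpa3 and Hnrnpf followed, from -0.75 down in size to -0.27, with no overlap between groups. Hnrnpm overlaps March2 on the same strand over 1169 bases of the annotation, so its count is uncertain too. Hnrnpd, an AU-rich element binding protein, and Hnrnpu, a scaffold protein of chromatin and RNA, overlapped between groups and had the smallest differences (-0.20 and -0.14).

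Among core spliceosome genes, U2af2, Sf1, Snrnp70 and Sf3a1 had the largest fitted differences. The subgroup median was -0.62 and all 9 were below 0 (51.3% of all genes). By edgeR 4 had an unadjusted p under 0.05, all lower (9.45% of all genes). In 8 both aged libraries lay under both young ones (26.7% of all genes). U2af2 (ENSMUSG00000030435; chromosome 7, 5062143 to 5079938, plus strand), the large U2AF subunit which contacts the pyrimidine-rich tract, lay at 119 and 99.97 CPM (young) against 46.8 and 51.4 CPM (aged) (log2 fold change -1.16, SE 0.30, edgeR adjusted p = 0.168). Its small partner U2af1, which reads the AG at the intron end, lay at 93.1 and 90.1 against 80.2 and 73.7 CPM, a difference of -0.25 (SE 0.28, edgeR adjusted p = 0.669). The 2 subunits of this heterodimer had fitted differences of unlike size, and the difference between them was not tested.

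Sf1 (ENSMUSG00000024949; chromosome 19, 6363690 to 6378030, plus strand), which recognises the branch point before U2 snRNP, lay at 202 and 111 against 78.1 and 78.3 CPM, with young replicate 1 well above the rest (-0.999, SE 0.37, edgeR adjusted p = 0.219). Sf3a1 (ENSMUSG00000002129; chromosome 11, 4160350 to 4182541, plus strand), a U2 snRNP subunit, lay at 27.9 and 27.4 against 14.2 and 18.3 CPM (-0.76, SE 0.32, edgeR adjusted p = 0.249). Snrnp70 (ENSMUSG00000063511; chromosome 7, 45376453 to 45395742, minus strand), the U1-70K protein, lay at 564 and 405 against 279 and 256 CPM (-0.86, SE 0.36, edgeR adjusted p = 0.258). None of these 3 overlapped between groups. The second U1 protein, Snrpa, had a difference of -0.62. Of the U2 subunits, Sf3b1, which clamps the branch helix, had -0.59 and Sf3b2 -0.27. Prpf8, at the catalytic centre of U5 snRNP, was the only core gene whose groups overlapped (28.8 and 43.1 against 31.3 and 26.9 CPM; -0.31).

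The 2 associated genes parted. Ddx5 (ENSMUSG00000020719; chromosome 11, 106780355 to 106789185, minus strand), a DEAD-box helicase that works in splicing and transcription, lay at 1304 and 965 CPM (young) against 599 and 521 CPM (aged) (log2 fold change -1.02, SE 0.42, edgeR adjusted p = 0.252). Rbm39 (ENSMUSG00000027620; chromosome 2, 156147239 to 156180238, minus strand), a U2AF-like RNA-binding protein, lay at 815 and 480 against 499 and 582 CPM. Its second young library was the lowest of the 4, so the groups overlapped (-0.26, SE 0.43, edgeR adjusted p = 0.775).

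The subgroups differed little in their medians (-0.69 for SR, -0.60 for hnRNP and -0.62 for core spliceosome genes), and each held genes with large and with small fitted differences. Without young replicate 1 these medians were -0.56, -0.35 and -0.55. Summed SR genes gave 3499 and 2473 against 1596 and 1867 CPM, summed hnRNP genes 2998 and 2235 against 1692 and 1689 CPM, and summed core genes 1471 and 1075 against 789 and 754 CPM. In every subgroup sum, the lower young library was above the higher aged library.

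Gene length on the genome, intron included, varied together with part of these differences. The members are short genes, with a median span of 14.2 kb against 23.2 kb over the tested genes and none longer than 42.3 kb. Over all tested genes split by span into 10 bins of like size, the median log2 fold change was -0.02 in the bin of shortest genes (0.204 to 3.86 kb), -0.23 in the bin from 3.86 to 7.17 kb and 0.07 in the bin of longest genes. By the same bins, Srsf2 was the 1 member of the shortest (-1.09), the 5 members from 3.86 to 7.17 kb had a median of -1.13, the 8 from 7.17 to 11.4 kb -0.69, the 5 from 11.4 to 16.4 kb -0.58, the 9 from 16.4 to 23.2 kb -0.31, and the 4 and 3 members of the next 2 bins -0.35 and -0.59. All 35 members nonetheless lay under the median of their own bin, and after subtracting it the member median was -0.56 (SR -0.55, hnRNP -0.56, core -0.62). Across the same nuclei, the long nuclear RNA Malat1 took 1.65% and 2.41% of UMIs (young) against 4.82% and 3.54% (aged). Mitochondrial transcripts took 0.573% and 0.864% against 0.951% and 0.569%, ribosomal protein transcripts 0.244% and 0.547% against 0.386% and 0.249%, and the immediate early gene Egr1 reached 222 unscaled CPM in aged replicate 1 against at most 9.47 elsewhere. The heat shock gene Hspa1b lay at 13.4 and 5.13 against 0.750 and 0.799 unscaled CPM. Summed markers of other cell classes in the hepatocyte-like nuclei were also higher in the young libraries for endothelial cells (184 and 186 against 88.6 and 69.2 unscaled CPM, 8 markers) and stellate cells and fibroblasts (132 and 187 against 67.1 and 75.2, 9 markers), with none of these markers at 0. B cell markers were likewise higher in the young libraries (16.6 and 32.6 against 14.5 and 8.23), T/NK markers were lower in them (21.1 and 26.8 against 79.1 and 52.8), and macrophage (163 and 298 against 203 and 218) and cholangiocyte markers (164 and 299 against 252 and 198) overlapped. At 0 were 1 T/NK marker in young replicate 1 and 1 cholangiocyte marker in both replicates numbered 1. The 8 hepatocyte markers themselves summed to 20826 and 19026.5 against 16599.8 and 15250.1. The part of span, of these quality measures or of other cells in the member differences was not tested.

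**Figure D2:**
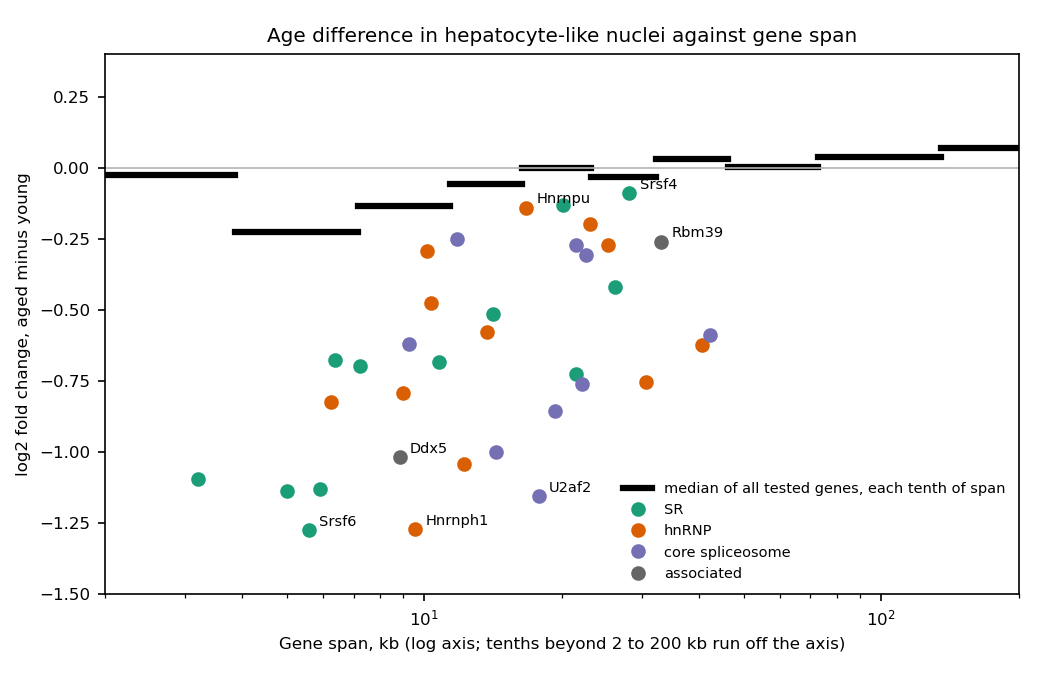
Log2 fold change (aged minus young) in hepatocyte-like nuclei against gene span in kb on a log axis; points are the 35 members coloured by subgroup and black bars the medians of all tested genes in 10 bins of span. All points lie under the bar of their own bin, and the members under 6 kb lie near -1.1 to -1.3.

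Other genes of the splicing pathway were read from 8 lists chosen with earlier results of these data known. Of their 99 tested genes 85 were below 0 (median log2 fold change -0.33), none was called over all genes by edgeR, and 15 had an unadjusted p under 0.05, 14 of them lower, where 19.3% of all genes passed and 9.45% were lower. The other hnRNP genes were nearest to the members, with 14 of 16 below 0, 4 of them lower at an unadjusted p under 0.05, and a median of -0.50. Pcbp1, an intronless poly(C)-binding protein gene, lay at 37.2 and 52.6 CPM (young) against 12.2 and 16.0 CPM (aged) (-1.67, edgeR adjusted p = 0.142), and Hnrnpdl had -0.94 (edgeR adjusted p = 0.187). Prp19 complex and helicase genes were below 0 for 14 of 15 (median -0.47), led by Dhx16, a helicase that drives spliceosome activation, at 98.8 and 98.5 against 32.0 and 35.96 CPM (-1.54, edgeR adjusted p = 0.140) and by Ddx39b, an export helicase (-0.79, edgeR adjusted p = 0.219).

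Sm, U1 and U2 snRNP genes were below 0 for 15 of 17 (median -0.46), with 3 lower and 1 higher at an unadjusted p under 0.05. Sf3b4, a partner of Sf3b2, lay at 12.5 and 12.4 against 2.93 and 3.45 CPM (-1.96, edgeR adjusted p = 0.144), and Snrpa1, the U2 A' protein, had -1.35 (edgeR adjusted p = 0.148). Tri-snRNP genes were below 0 for 10 of 11 (median -0.33), led by Usp39 (-1.13, edgeR adjusted p = 0.194) and Prpf6 (-1.23, edgeR adjusted p = 0.253). Of the kinases that phosphorylate SR proteins 6 of 8 were below 0 (median -0.29), with Clk3 at -0.83 and Srpk1 at -0.87 (edgeR adjusted p = 0.224 and 0.236). Tissue and alternative splicing regulators were below 0 for 15 of 17 (median -0.31), among them the epithelial regulator Esrp2 at 68.5 and 73.2 against 33.5 and 28.7 CPM (-1.19, edgeR adjusted p = 0.161) and Tial1 (-0.68, edgeR adjusted p = 0.268). The smallest medians were those of the exon junction complex (-0.21, 5 of 6 below 0, Eif4a3 at -0.65 and Rbm8a at -0.29, edgeR adjusted p = 0.308 and 0.661) and of the SR-related and speckle genes (-0.16, 6 of 9 below 0, Srrm1 at -0.43 and Zranb2 at -0.41, edgeR adjusted p = 0.485 and 0.567).

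Summed levels of the members were alike between the 3 tested lineages, while hepatocyte-like nuclei were the lowest class in both aged libraries. In unscaled CPM, the 35 members together gave 9436 and 7980 in young and 4996 and 5393 in aged hepatocyte-like nuclei. Stellate/fibroblast-like nuclei (cells that store retinoids and make matrix) gave 10335 and 8026 against 5578 and 6089, and endothelial-like nuclei 9873 and 7890 against 5477 and 5885. In each of these 3 classes the young libraries were above the aged libraries and young replicate 1 was the highest. Classes without a test, counted only in libraries with at least 20 nuclei, lay above the hepatocyte-like value in both aged libraries. In young replicate 2, macrophage-like and cholangiocyte-like nuclei lay slightly under it. Macrophage-like nuclei gave 7939 in young replicate 2 and 6572 and 6463 in the aged libraries, and cholangiocyte-like nuclei 7731 against 6057 and 6016. In the aged libraries, T/NK-like nuclei gave 6948 and 7884 and B-like nuclei 7451 and 7390, each above the 4996 and 5393 of aged hepatocyte-like nuclei. No young library had enough lymphocyte-like nuclei for a value.

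**Figure D3:**
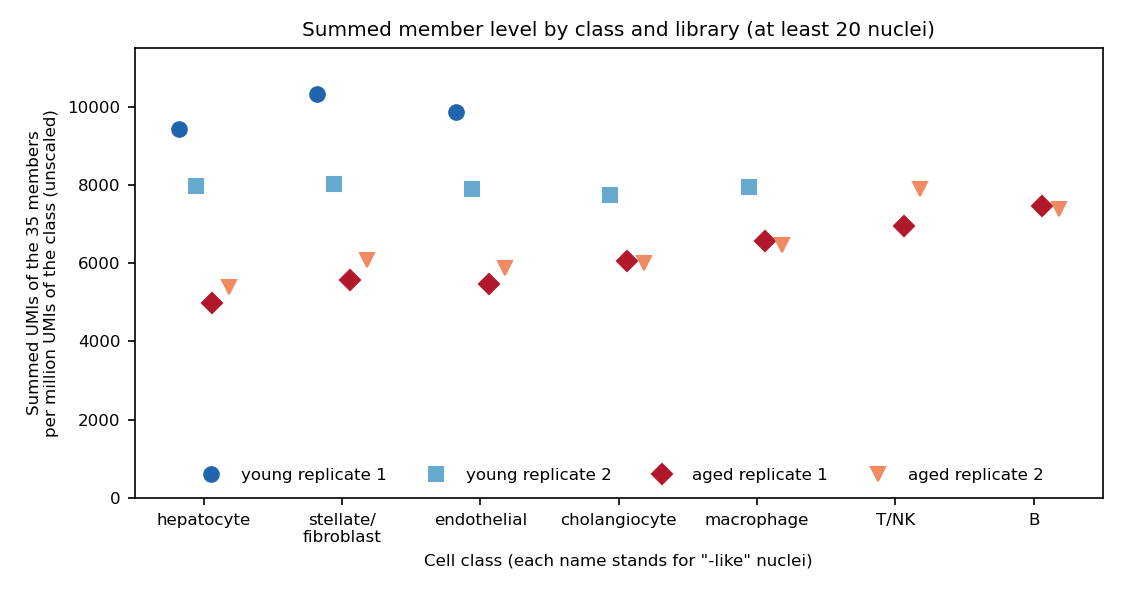
Summed unscaled CPM of the 35 members for each cell class, 1 point per library with at least 20 nuclei of that class. The aged points lie under the young points in all 5 classes that have both, and the aged T/NK-like and B-like points lie above the aged hepatocyte-like points.

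Free hepatocyte RNA has to be read beside all values outside hepatocytes. Nuclei at or above 50% of the median hepatocyte-like level of summed hepatocyte markers in the same library made up 38.6% and 83.1% in young and 23.5% and 74.2% in aged endothelial-like nuclei, and 10.8% and 77.7% against 9.24% and 36.8% in stellate/fibroblast-like nuclei. It differed more between replicates than between ages, and was highest in young replicate 2. Its part in the results below was not tested beyond the fits without these nuclei. Depth was also lower, with 37273 to 542057 UMIs per library summed over endothelial-like and 172231 to 1296727 over stellate/fibroblast-like nuclei, against 7787472 to 33775814 over hepatocyte-like nuclei.

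Set against hepatocyte-like nuclei of the same libraries, most members did not differ by class past the threshold. Members were left out of the genes used for clustering, and 4 of 35 were called in stellate/fibroblast-like nuclei, where 50.1% of all tested genes and 43.8% of those not used for clustering were called. In endothelial-like nuclei 6 of 35 were called, where the shares were 41.2% and 35.2%. The median log2 difference of the members was 0.01 in stellate/fibroblast-like and -0.17 in endothelial-like nuclei, against -0.06 and -0.13 over all tested genes. A difference past 2-fold was found for 1 and 2 members, against 32.5% and 30.7% of the genes not used for clustering.

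U2af1 and Srsf4 were lower than in hepatocyte-like nuclei in both other classes. U2af1 had 102, 102, 97.3 and 83.9 CPM in hepatocyte-like nuclei (young replicates, then aged). It had 30.4, 60.5, 46.8 and 40.4 CPM in stellate/fibroblast-like and 39.2, 57.8, 40.3 and 48.6 CPM in endothelial-like nuclei. No library of the other classes reached the lowest hepatocyte value (log2 difference -1.08, SE 0.22, and -1.0, SE 0.25; edgeR adjusted p = 0.000641 and 0.0044). Srsf4 had 213, 201, 173 and 237 CPM in hepatocyte-like nuclei. It had 48.7, 108, 144 and 150 CPM in stellate/fibroblast-like and 78.4, 109, 80.6 and 123 CPM in endothelial-like nuclei, again with no overlap (-0.86, SE 0.25, and -1.10, SE 0.27; edgeR adjusted p = 0.00868 and 0.00498). Outside hepatocyte-like nuclei these values rest on few UMIs, most of all in young replicate 1. U2af1 had 5, 28, 15 and 46 UMIs in stellate/fibroblast-like and 2, 9, 10 and 26 in endothelial-like nuclei. Srsf4 had 8, 50, 46 and 171 UMIs, and 4, 17, 20 and 66. The calls for U2af1 and Srsf4 held with RLE factors, without each library in turn and without the nuclei rich in hepatocyte RNA. Without the 2 hepatocyte-like clusters that had markers of another class, the same 4 and 6 members were called in these 2 classes.

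Tra2a was the 1 member called higher with TMM factors and all 4 libraries. It had 389, 281, 303 and 400 CPM in stellate/fibroblast-like nuclei against 238, 169, 203 and 192 CPM in hepatocyte-like nuclei (0.77, SE 0.19, edgeR adjusted p = 0.00259). All 4 stellate/fibroblast-like values lay above all 4 hepatocyte-like ones. In endothelial-like nuclei its difference was 0.33 (edgeR adjusted p = 0.206). With RLE factors Srsf10, Hnrnph1 and Hnrnpl were also higher in stellate/fibroblast-like nuclei (edgeR adjusted p = 0.0299, 0.0464 and 0.0297) and Srsf3 in endothelial-like nuclei (0.0412), so the stellate/fibroblast calls were 4 higher and 3 lower in place of 1 and 3. With TMM factors, Srsf10 was also called higher in stellate/fibroblast-like nuclei without young replicate 1 (edgeR adjusted p = 0.0427). Hnrnpl was so without young replicate 2 (edgeR adjusted p = 0.0481). The paralogue of Tra2a, Tra2b, did not pass in either class (0.22 and -0.17, edgeR adjusted p = 0.387 and 0.847). The remaining calls were lower levels. Srsf2 had a difference of -0.62 in stellate/fibroblast-like and -0.64 in endothelial-like nuclei (means 286 ± 159 and 255 ± 79.8 against 417 ± 173 CPM, SD, n = 4; edgeR adjusted p = 0.0230 and 0.0285).

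In endothelial-like nuclei, Srsf5 (429 ± 196 against 689 ± 349 CPM, SD, n = 4; -0.68, edgeR adjusted p = 0.0218), Hnrnpc (162 ± 45.0 against 298 ± 109 CPM, SD, n = 4; -0.71, edgeR adjusted p = 0.0350) and Snrnp70 (279 ± 64.0 against 426 ± 145 CPM, SD, n = 4; -0.57, edgeR adjusted p = 0.0357) were also lower. For each of these 3, the endothelial-like value was under the hepatocyte-like value in all 4 libraries. The Srsf2 call in stellate/fibroblast-like nuclei was lost without young replicate 2 or either aged replicate (edgeR adjusted p = 0.0616 to 0.0946). In endothelial-like nuclei the Srsf2 call was lost without any 1 of the libraries (edgeR adjusted p = 0.0520 to 0.161). There Srsf5 and Hnrnpc were lost without young replicate 1, young replicate 2 or aged replicate 1 (edgeR adjusted p = 0.0679 to 0.0823 and 0.0676 to 0.108). Snrnp70 was lost without young replicate 1, young replicate 2 or aged replicate 2 (edgeR adjusted p = 0.108 to 0.144). Hnrnpc and Snrnp70 were also lost without the nuclei rich in hepatocyte RNA (edgeR adjusted p = 0.0766 and 0.0682). All 9 core genes had a fitted level below that of hepatocyte-like nuclei in endothelial-like nuclei (median -0.35), of which U2af1 and Snrnp70 passed.

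In the 2 tested lineages outside the hepatocyte, most members again had a lower fitted level in the aged libraries and none passed. In stellate/fibroblast-like nuclei 34 members were tested (Srsf9 was removed for low counts), 30 were below 0 (51.3% of all genes) and the median log2 fold change was -0.40, against -0.01 over all 6867 genes. No member was called (background 0.0291%), 7 had an unadjusted p under 0.05, all lower (10.8% of all genes, 5.42% lower), and in 17 both aged libraries lay under both young ones (20.2% of all genes). DESeq2 called no member. By subgroup the medians were -0.20 for SR, -0.26 for hnRNP and -0.62 for core genes, and without the nuclei rich in hepatocyte RNA (30 members tested) -0.53, -0.22 and -0.49. Hnrnpk lay at 264 and 196 CPM (young) against 59.9 and 101 CPM (aged) (-1.44, SE 0.37, edgeR adjusted p = 0.355), from 43, 87, 18 and 119 UMIs. Srsf2 lay at 497 and 332 against 133 and 200 CPM (-1.27, SE 0.36, edgeR adjusted p = 0.355), and neither gene overlapped between groups.

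Without young replicate 2, young replicate 1 was the only young library, so the young group had no spread of its own. The median in stellate/fibroblast-like nuclei was then -0.49, with Hnrnpk at -1.65 and Srsf2 at -1.54. In the fit without the nuclei rich in hepatocyte RNA the median was -0.43 and no member was called. Without young replicate 1 the SR median turned to 0.09. Srsf4 had the largest fitted value above 0 in this class (Tra2a, Srsf11 and Ptbp1 lay at 0.06, 0.05 and 0.01), at 49.1 and 113 CPM (young) against 153 and 144 CPM (aged) (0.77, SE 0.40, edgeR adjusted p = 0.522), and was the 1 member with both aged libraries above (22.1% of all genes). It is named here after its value was seen, and its young replicate 1 value rests on 8 UMIs.

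In endothelial-like nuclei 29 members were tested, 27 were below 0 (46.7% of all genes), and the median was -0.50 against 0.05 over all 4756 genes. No member was called by edgeR (background 0%) or DESeq2, 2 had an unadjusted p under 0.05, both lower (6.37% of all genes, 3.68% lower), and 15 had both aged libraries under both young ones (17.8% of all genes), and none had both above (20.8%). The 6 members not tested for low counts were Srsf9, Ptbp1 and the core genes Sf3a1, Sf3b2, Snrpa and Prpf8. Hnrnpk lay at 529.6 and 269 CPM (young) against 123 and 151 CPM (aged) (-1.45, SE 0.47, edgeR adjusted p = 0.743), and Srsf6 at 471 and 219 against 133 and 138 CPM (-1.24, SE 0.49, edgeR adjusted p = 0.743). Both had no overlap between groups, but young replicate 1 rests on 18 and 16 UMIs from 44 nuclei. Counted without the nuclei rich in hepatocyte RNA the median of the 23 members tested was -0.29, with -0.84 for SR, -0.55 for hnRNP and -0.29 for core genes, against -0.47, -0.51 and -0.37 with all of the nuclei.

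The difference between lineages in the age effect was tested directly. No member passed in stellate/fibroblast-like against hepatocyte-like nuclei (background 0.0675%) or in endothelial-like against hepatocyte-like nuclei (0.0193%), and no member had an unadjusted p under 0.05 in either, by edgeR (7.54% and 6.76% of all genes). The smallest unadjusted p in stellate/fibroblast-like nuclei were those of Srsf4 (interaction 0.88, SE 0.47, edgeR adjusted p = 0.750) and Srsf9 (1.00, SE 0.71, edgeR adjusted p = 0.878), and in endothelial-like nuclei those of Srsf9 (-1.42, SE 0.80, edgeR adjusted p = 0.829) and Snrpa (1.50, SE 1.11, edgeR adjusted p = 0.907). Endothelial-like Snrpa was at 0, 12.9, 4.03 and 28.0 CPM, so its interaction rests on very few UMIs. Srsf9 was at 12.2, 13.0, 12.5 and 10.5 CPM in stellate/fibroblast-like nuclei (young replicates, then aged). In endothelial-like nuclei it was at 19.6, 57.8, 12.1 and 5.61 CPM. It was removed for low counts from the age fits of both classes, so its interactions rest on few UMIs too. That no member passed does not show the age effects to be alike between lineages.

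**Figure D4:**
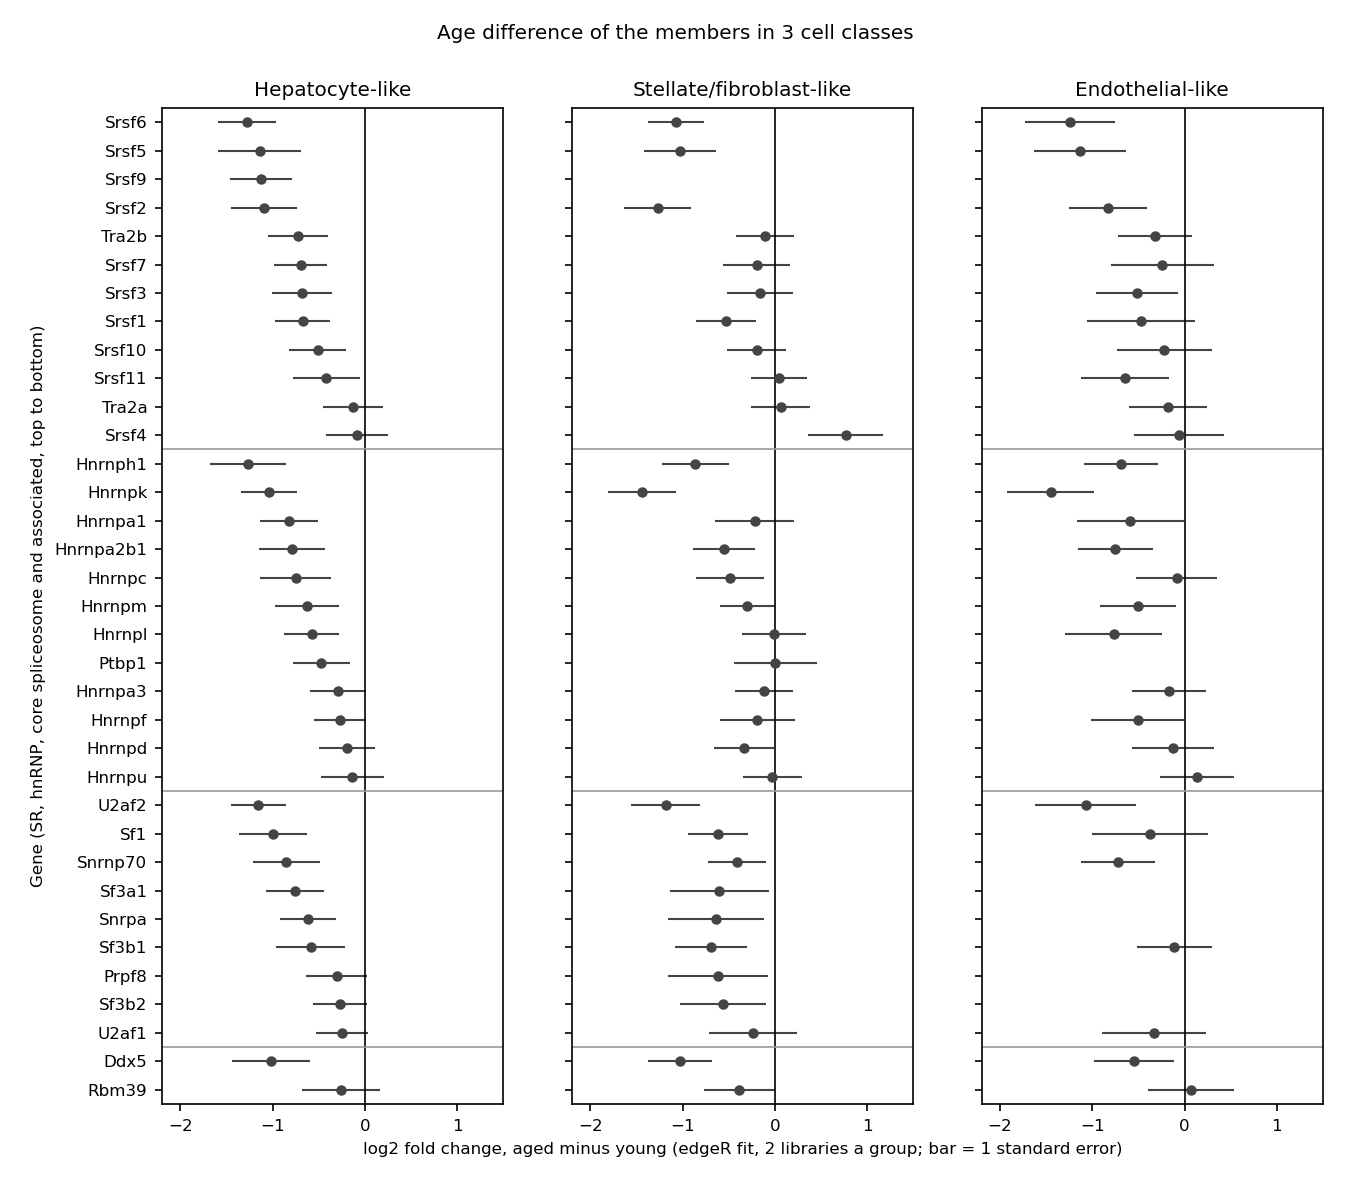
Fitted log2 fold change (aged minus young) of each member with 1 standard error in hepatocyte-like, stellate/fibroblast-like and endothelial-like nuclei; members removed for low counts have no point. Srsf6, Srsf5, Srsf2, Hnrnpk, Hnrnph1 and U2af2 lie left of 0 by more than 0.6 in all 3 classes, and no member passed the adjusted threshold in any.

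From the portal to the central vein, few members differed. In each library the hepatocyte-like nuclei were ordered by a score of their pericentral landmark genes less their periportal ones and cut into 3 equal parts, of which the outer 2 were compared, with landmarks left out of the test. The parts are ranges of this score, not cell types, and 12.2% to 18.8% of the nuclei lay within 0.1 of a border. The median number of UMIs from markers of other classes was 1 or 2 per nucleus in both parts of all libraries. Of the 35 members 4 were called (background 21.2%), 2 higher and 2 lower in the pericentral part, and none reached a 2-fold difference (7.07% of all genes). The median log2 difference was -0.03, and -0.01 over all 13896 genes.

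Srsf4 and Srsf6 were higher in pericentral nuclei. Srsf4 had 208 and 201 CPM in young and 168 and 262 CPM in aged pericentral nuclei, against 162 and 156, and 127 and 172 CPM in the periportal nuclei of the same libraries. The pericentral value was the higher in 4 of 4 libraries (log2 difference 0.44, SE 0.07, edgeR adjusted p = 0.00154). Srsf6 had 349 and 296, and 127 and 130 CPM in pericentral against 271 and 234, and 107 and 116 CPM in periportal nuclei, also higher in 4 of 4 libraries (0.28, SE 0.07, edgeR adjusted p = 0.0150).

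U2af1 was lower in pericentral nuclei in 4 of 4 libraries, with 78.6 and 83.4, and 76.0 and 70.6 CPM against 106 and 95.2, and 85.9 and 81.0 CPM (-0.24, SE 0.08, edgeR adjusted p = 0.0485). Hnrnpa1 was lower in 3 of 4, with 64.5 and 40.0, and 25.3 and 24.8 CPM against 60.3 and 53.1, and 37.6 and 33.4 CPM (-0.35, SE 0.11, edgeR adjusted p = 0.0416). The zone calls of Srsf6, Hnrnpa1 and U2af1 were lost in fits without 1 library: Srsf6 without young replicate 1 or 2 (edgeR adjusted p = 0.0608 and 0.0727), Hnrnpa1 without young replicate 2 or either aged replicate (0.143 to 0.205) and U2af1 without any 1 of the 4 (0.0951 to 0.162). The Srsf4 call held in each. U2af1 was also lost with RLE factors and with at least 1000 UMIs per nucleus (edgeR adjusted p = 0.0569 and 0.0530), and without the 2 hepatocyte-like clusters that had markers of another class (0.0878).

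**Figure D5:**
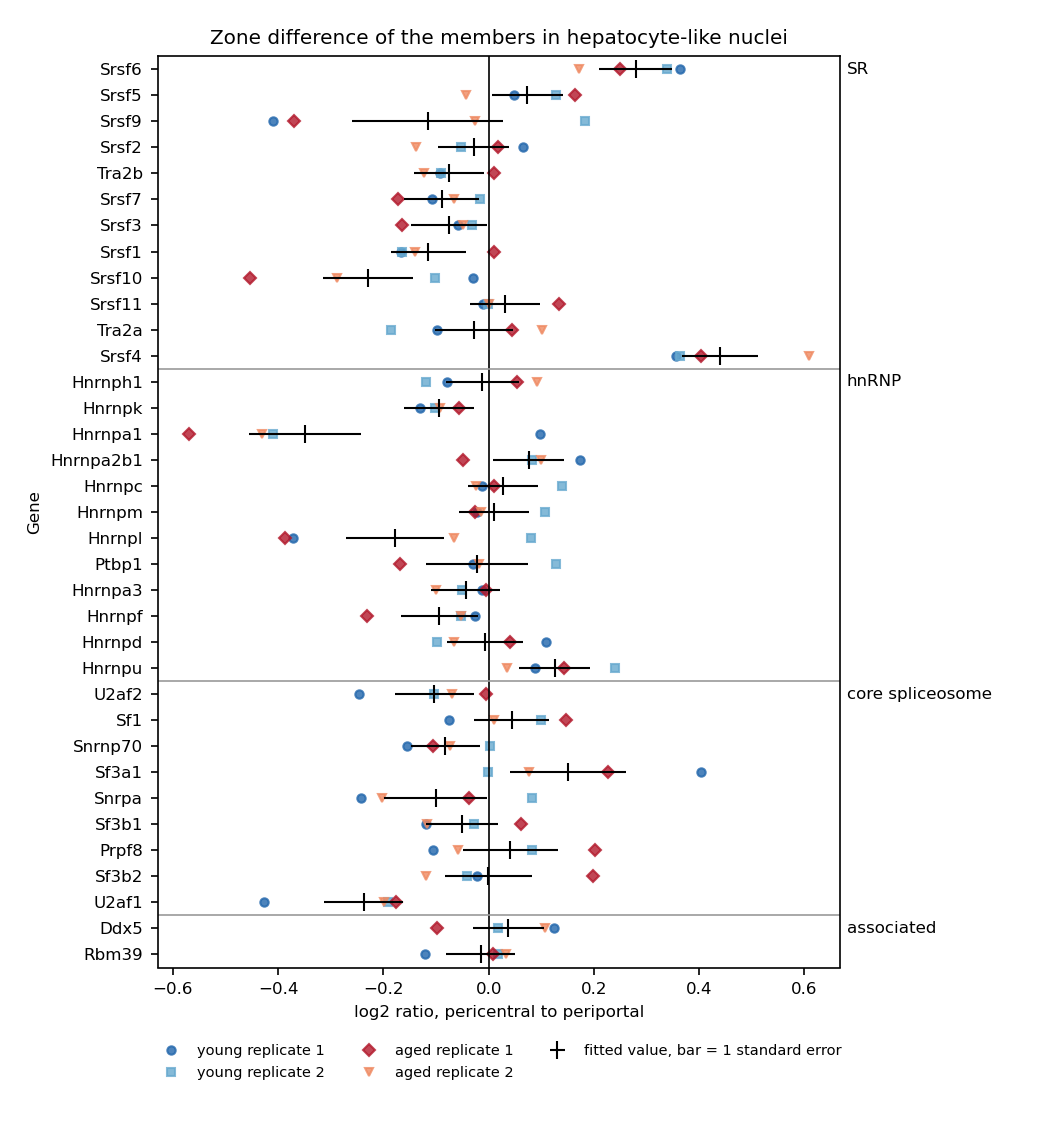
Log2 ratio of pericentral to periportal level for each member, 1 coloured point per library, with the fitted value and 1 standard error in black. The points of Srsf4 and Srsf6 lie right of 0 and those of U2af1 left of 0 in all 4 libraries, while most other members scatter around 0.

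The order of young over aged libraries held for the summed members in both zones. Summed over the members, periportal nuclei gave 9904 and 7202 CPM (young) against 5259 and 5431 CPM (aged), and pericentral nuclei 9937 and 7354 against 5292 and 5472 CPM. Both aged libraries lay under both young ones for 30 members in the periportal and 28 in the pericentral part, as they did in 25.6% and 24.4% of all genes. No member passed the test of a zone by age term (background 0.122%), and none had an unadjusted p under 0.05 by edgeR (6.28% of all genes). The smallest were Srsf10 (-0.29, SE 0.15, edgeR adjusted p = 0.829) and Tra2a (0.22, SE 0.13, edgeR adjusted p = 0.882). Srsf10 had 99.0 and 74.1 against 101 and 79.6 CPM in young and 48.5 and 61.8 against 66.4 and 75.5 CPM in aged pericentral and periportal nuclei. Tra2a had 207 and 140 against 222 and 159 CPM in young and 169 and 178 against 164 and 166 CPM in aged nuclei, so its zone order was periportal over pericentral in both young libraries and the opposite in both aged libraries.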

How the data were processed

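The authors deposited, for each of the 4 libraries, 1 table of UMI counts (genes by barcodes); per the submitters' processing notes Cell Ranger 7.1.0 and mm10 were used, while how introns and multi-mapped reads were treated is not given in the sources used here. Nuclei needed 500 UMIs, 300 genes and no more than 5% mitochondrial UMIs. The Scrublet threshold marked no doublets, so the highest scores were removed at 0.8% per 1000 nuclei. Nuclei were clustered (scanpy 1.11.5, 30 components, Leiden) within each library and again pooled, without the members and listed pathway genes. Clusters were named from marker lists, with naming thresholds set after the data were seen. Those where no other class's markers had a mean log2 fold above 0.5 were taken as hepatocyte-like, whatever their hepatocyte score. Unnamed clusters were not used. An alternative added after seeing the data left out hepatocyte-like clusters with more markers of another class than of hepatocytes among their top 10 genes. Counts were summed per library and class or zone, and tested with edgeR 4.0.16 (filterByExpr, TMM, glmQLFit and glmQLFTest; R 4.3.3), with Benjamini-Hochberg adjustment over all genes tested and a threshold of 0.05. Class and zone fits had the library as a block. Each standard error (SE) is the absolute log2 difference divided by the square root of edgeR's F value. It is not given by the model itself and is approximate. Fits were tested on simulated data. DESeq2 1.42.0, RLE factors, other filters, a replicate block, thinning to 500 UMIs and fits without each library were alternatives.

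The members, lists and tests were chosen with earlier results of these data known. Values per library are given, in each subgroup, for the 3 members with the smallest unadjusted p for age in hepatocyte-like nuclei. The member of highest mean CPM is also given. Elsewhere they are given for members past the threshold or, with none, the 2 with the smallest unadjusted p. Exceptions are Srsf2, Srsf5, Hnrnpc and Snrnp70 between classes, given as mean and SD over libraries of both ages. From each pathway list 2 genes are named, and other genes were named after their values were seen. Same-numbered libraries of the age groups were not shown to be paired.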

Additional observations from a re-analysis of the deposited data

How the results depend on the processing

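With 2 libraries per group, several counts moved when 1 library was left out. Each such age fit kept only 1 library in an age group, which then had no spread of its own. Counts from these fits are therefore weak. Members called for age in hepatocyte-like nuclei ranged from 0 to 5 when each library was left out in turn, and DESeq2 called 1; the median lay between -0.74 and -0.49. The number of genes called in that comparison was 4, and 1705 with no low-count filter, 918 with DESeq2, 0 with the replicate block, 7 without the 2 hepatocyte-like clusters that had markers of another class, 2 with no scaling factor, with at most 1% mitochondrial UMIs or with equal numbers of nuclei, and 265, 1510, 245 and 1086 without young replicate 1, young replicate 2, aged replicate 1 and aged replicate 2. Leaving out each library gave 0 to 6 members called in stellate/fibroblast-like nuclei and medians from -0.49 to -0.29; the SR median there ranged from -0.35 to 0.0949, and reversed without young replicate 1. In endothelial-like nuclei, the median was -0.37 with no low-count filter, -0.41 with DESeq2, -0.29 without nuclei rich in hepatocyte RNA, and -0.55 to -0.40 without each library. Members called between classes numbered 7 with RLE factors in stellate/fibroblast-like nuclei (4 higher and 3 lower, against 1 and 3 with TMM; 3 to 6 without each library) and 2 to 5 in endothelial-like nuclei without each library (6 with all). Zone calls numbered 1 to 2 without each library (4 with all). The fits that left one out also had fewer libraries, and the cause of these moves was not tested.

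With the replicate number as a block no member was called in any of the 3 classes, as without it, and the medians were -0.67, -0.37 and -0.49; 4 hepatocyte members then had an unadjusted p under 0.05, against 13. The deviations of same-numbered libraries were negatively correlated (r = -0.214, across 15558 genes, which are not independent replicates). The crossed pairing, added after seeing the data, gave 0 members and 5 genes called, and 17 members with an unadjusted p under 0.05. Leaving out the 2 hepatocyte-like clusters, also chosen after seeing the data, changed no count of members called by over 1.5 times.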
